A study of Mus musculus with 9 samples.

Results

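The collagen genes are the genes of the alpha chains that assemble into collagen proteins. They were taken as the protein-coding genes of the deposited expression table whose symbol is Col, a number, a and a number, and 30 of its 16755 genes met this rule. GENCODE M21 names 44 mouse genes of that form, and the other 14 were not analysed here (Col2a1, Col4a6, Col6a4, Col7a1, Col8a2, Col9a1, Col9a2, Col9a3, Col11a1, Col19a1, Col20a1, Col22a1, Col23a1 and Col26a1). Polyadenylated RNA had been sequenced from 9 male C57BL/6 mice in 3 groups of 3 mice. The Scd2f/f TAL group carried Scd2, a stearoyl-CoA desaturase gene, with 1 exon flanked by loxP sites. These mice were given diethylnitrosamine (DEN, 10 mg/kg) when 2 weeks old and then, from the age of 6 weeks, Western alcohol diet (WAD), for 4 months by the labels and for longer by the study's methods. Their sampled tissue was tumor-adjacent liver (TAL), which the labels call liver. The Scd2f/f;CC TAL group had the same floxed Scd2 and the same regimen, and also a Cre transgene driven by the Col1a1 promoter (CC), which the study used to delete Scd2 in Col1a1-expressing activated hepatic stellate cells (aHSC). The control liver came from Scd2f/f mice whose characteristics give them as untreated, although the protocol text attached to those samples repeats the DEN and diet wording. All 3 groups therefore shared the floxed Scd2 alleles and by design differed in regimen, Cre or both. The study describes microscopic tumors within TAL and markedly reduced tumors in Scd2f/f;CC mice. How far tumor content entered the values below was not tested. Mice with Cre and an intact Scd2 were not analysed here, so effects of the transgene and of Scd2 loss cannot be told apart.

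Each collagen is a helix of 3 alpha chains, and each chain carries long runs of Gly-X-Y units, because only glycine is small enough for the core of the helix. Fibrillar collagens form the cable-like fibers of scar tissue, type IV forms the sheet-like network of basement membranes, type VI forms beaded microfilaments around cells, and the fibril-associated collagens (FACIT) decorate fibers. In liver, hepatic stellate cells are quiescent vitamin A stores that turn into collagen-secreting myofibroblasts on injury, and portal fibroblasts do the same around bile ducts.

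The repeat can be seen in the genes themselves. Fibrillar collagen genes are known for coding exons of 54 bases, each of which spells 6 Gly-X-Y units. In the longest coding transcript of GENCODE M21, the 9 fibrillar members held 21 to 33 such exons each and 250 in all, while the 5 type IV members held 1 to 3 each, the 5 type VI members 2 to 3, the 3 FACIT members 4 to 12, and Col8a1 and Col10a1 none. The 3 exons below belong to 3 fibrillar chains of scar collagen and are shown because each is made of whole Gly-X-Y units. They are on GRCm38, plus strand, with the first codon of each unit, a glycine codon, in capitals. That of Col1a1 is coding exon 8 at chr11:94939904-94939957, that of Col1a2 is coding exon 8 at chr6:4515481-4515534, and that of Col3a1 is coding exon 6 at chr1:45325360-45325413.
Col1a1: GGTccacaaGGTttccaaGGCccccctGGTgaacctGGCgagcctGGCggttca
Col1a2: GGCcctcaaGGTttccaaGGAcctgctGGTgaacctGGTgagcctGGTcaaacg
Col3a1: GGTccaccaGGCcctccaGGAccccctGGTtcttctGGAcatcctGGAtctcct
Each exon holds 6 such codons, spaced 9 bases apart from the first base onward.

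**Figure D1:**
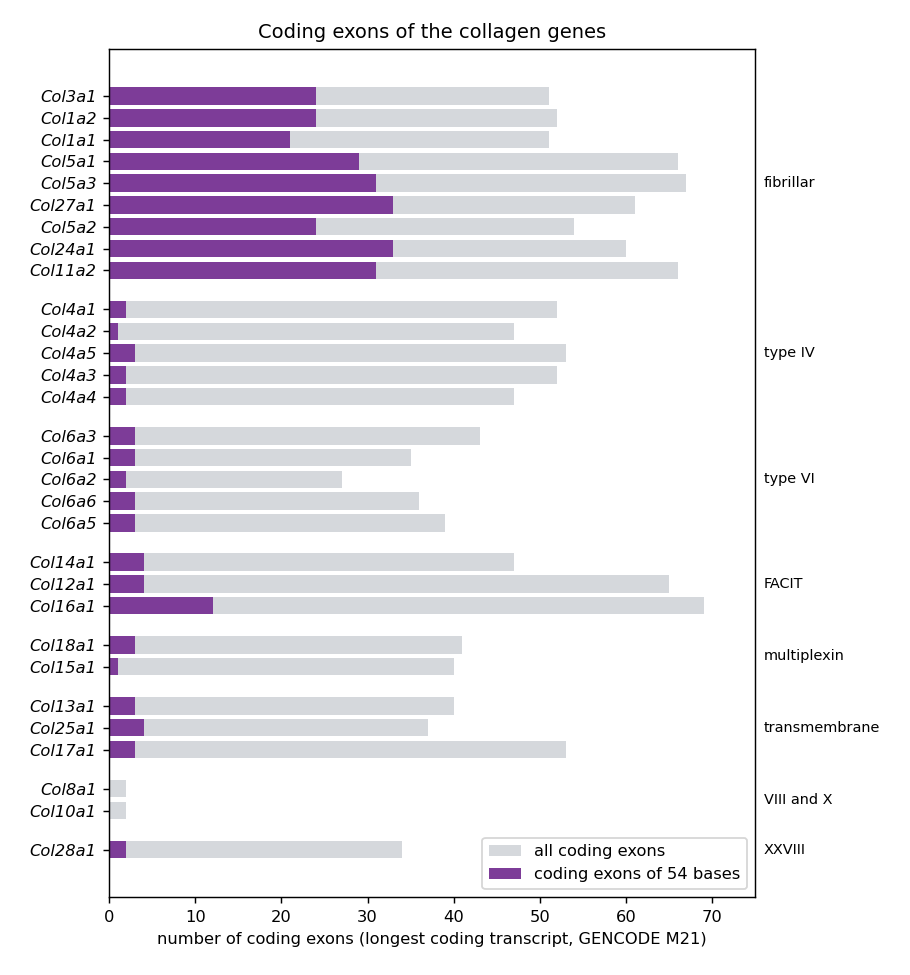
The horizontal axis counts coding exons in the longest coding transcript of each of the 30 collagen genes, grouped by type, with all coding exons in gray and those of exactly 54 bases in purple. The purple bars reach 21 to 33 in the fibrillar genes and no more than 12 elsewhere.

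The values compared below are the authors' mean of each group, in normalized read counts. Single-mouse values were not used here. The means as used carry no error, no test was run, and no difference was set against the spread between mice. A gene was called higher or lower when the means of the groups differed at least 2-fold, and only genes with a mean over the 3 groups of at least 1 were counted. Of the 30 collagen genes, 19 reached that mean, as did 11784 of all genes. The 3 comparisons share groups, so their values are given side by side and are not independent of each other. Rounding of the means to 3 significant digits moved no ratio of a collagen gene by more than 0.72%.

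The deposited means spanned a wide range among the collagen genes. To compare genes, each mean was divided by the length of the union of the gene's exons in kb. On that per-kb scale Col18a1 was far above the rest, at 46.0 in control liver, 54 in TAL of Scd2f/f mice and 65.2 in TAL of Scd2f/f;CC mice. Col18a1 encodes type XVIII, a heparan sulfate-bearing basement membrane collagen whose cleaved end is endostatin, and hepatocytes are known to make it. It made up 69.4% of the summed per-kb level of the 30 genes in control liver, 57.9% in TAL of Scd2f/f mice and 74.9% in TAL of Scd2f/f;CC mice. In control liver the next genes were Col14a1 at 4.96 per kb, Col4a1 at 3.36, Col4a2 at 2.57 and Col3a1 at 1.97. In Scd2f/f TAL Col3a1 was at 5.97 per kb, above Col4a1 at 5.35 and below Col14a1 at 9.54. In Scd2f/f;CC TAL the order was again Col14a1 at 6.16, Col4a1 at 3.31, Col4a2 at 2.67 and Col3a1 at 2.20. Whether neighbors in these orders differ beyond the spread between mice could not be determined. Divided by coding length instead, Col3a1 in Scd2f/f TAL was 13.3 per kb and Col14a1 was 12.4, so the order of these genes depended on the length used.

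**Figure D2:**
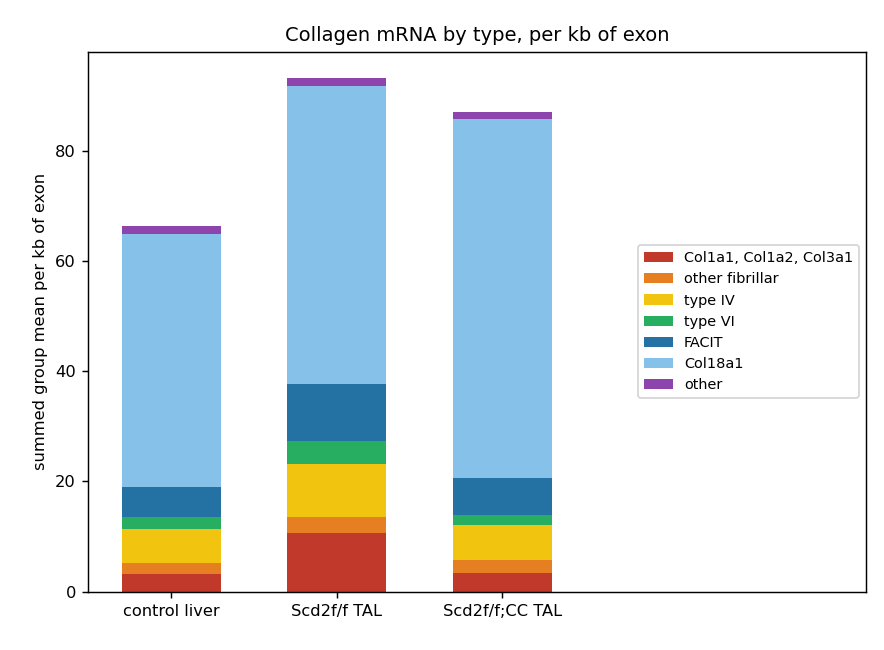
Bars stack the group means of all 30 collagen genes per kb of exon, 1 bar per group, split by collagen type; there are no error bars because only means were used. The light blue block of Col18a1 is the largest in each group, and the red block of Col1a1, Col1a2 and Col3a1 is 4.85% of the control bar, 11.5% of the Scd2f/f TAL bar and 3.96% of the Scd2f/f;CC TAL bar.

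The first comparison, of Scd2f/f TAL with control liver, asks which collagen genes differ after DEN and WAD in mice that can make SCD2 in all cells. Of the 19 collagen genes counted, 8 were at least 2-fold higher in Scd2f/f TAL (Col1a1, Col1a2, Col3a1, Col5a1, Col5a2, Col6a3, Col4a5 and Col6a1), against 6.4% of all genes with that mean. In the other direction 1 collagen gene, Col27a1, was at least 2-fold lower, against 2.89% of all genes. In either direction the count was 9 of 19, against 9.29% of all genes. The median log2 ratio was 0.91 over the 19 collagen genes and 0.028 over all genes. Of the 19 ratios, 17 were above 1, as were those of 6216 of all 11784 genes. Summed over the 30 genes without Col18a1, the means came to 159 in control liver and 313 in Scd2f/f TAL, and the mean of Col18a1 was 323 and 379. In whole tissue, fewer cells of a type and less RNA per cell cannot be told apart.

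The second comparison, of Scd2f/f;CC TAL with Scd2f/f TAL, asks what differs when Scd2 is deleted in Col1a1-expressing cells under the same regimen. The targeted gene Scd2 itself stood at 2.46 in control liver, at 6.47 in Scd2f/f TAL and, with a ratio of 0.289 between the TAL groups, at 1.87 in Scd2f/f;CC TAL. Those means cover the whole gene and not the floxed exon alone. Of the 19 collagen genes, 6 were at least 2-fold lower in Scd2f/f;CC TAL (Col1a1, Col1a2, Col3a1, Col4a5, Col6a3 and Col6a2), against 1.54% of all genes. None was at least 2-fold higher, against 0.645% of all genes, and in either direction the share of all genes was 2.18%. The median log2 ratio was -0.76 over the 19 collagen genes and 0.0059 over all genes. Of the 19 ratios, 15 were below 1, as were those of 5698 of all 11784 genes. The exceptions among the 19, each with a ratio above 1, were Col5a3, Col13a1, Col18a1 and Col27a1. The summed means without Col18a1 came to 168 in Scd2f/f;CC TAL.

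In the last comparison, of Scd2f/f;CC TAL with control liver, no collagen gene of the 19 was at least 2-fold higher or lower, against 4.51% of all genes that were higher, 2.55% that were lower and 7.06% in either direction. The median log2 ratio was 0.058 over the collagen genes and 0.043 over all genes. The farthest from 1 were Col5a3 at 1.90 and Col27a1 at 0.579.

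**Figure D3:**
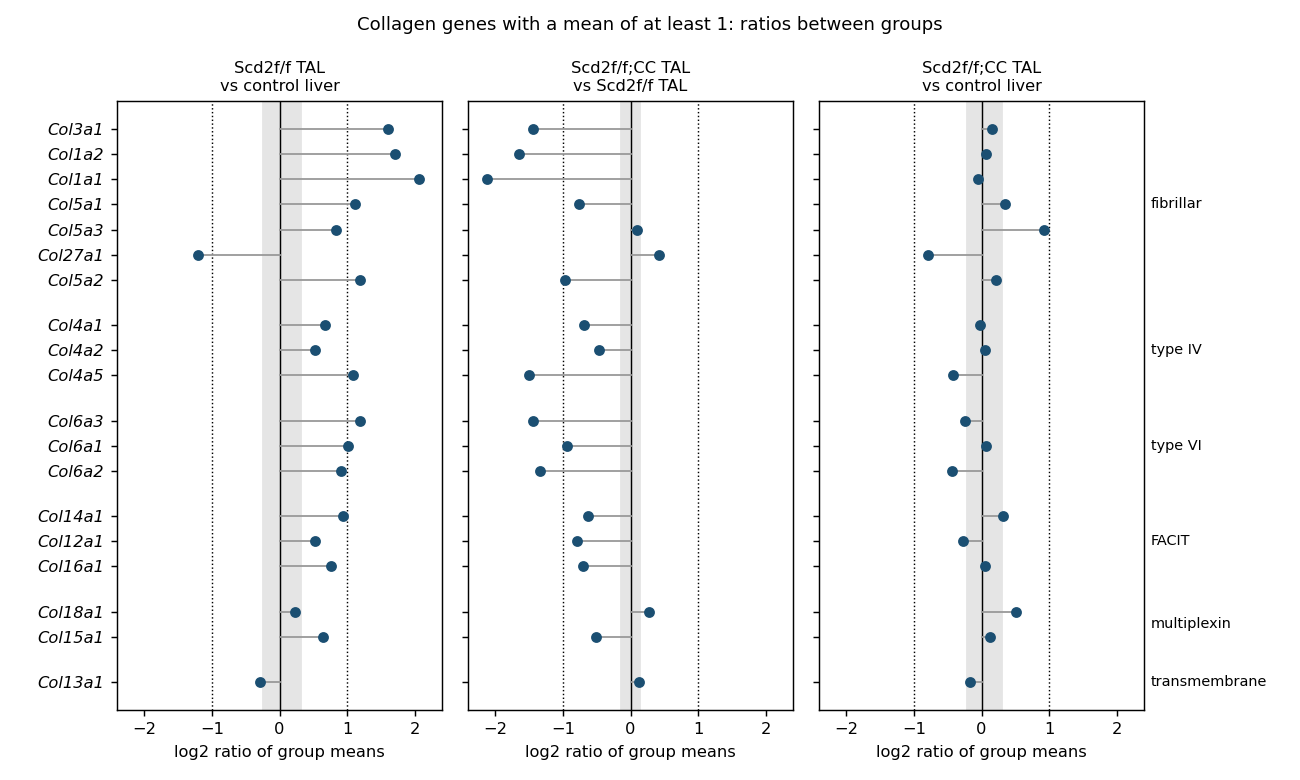
Each point is the log2 ratio of 2 group means for 1 of the 19 collagen genes with a mean of at least 1, grouped by type, with 1 panel per comparison; dotted lines mark 2-fold and the gray band holds the middle 50% of all 11784 genes with that mean. Points sit mostly right of the band in the first panel (median 0.91), left of it in the second (median -0.76) and around it in the third (median 0.058).

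Of the 19 collagen genes counted, the fibrillar chains of scar collagen held the 3 highest ratios of the first comparison, and Col1a1 and Col1a2 the lowest of the second. Col1a1 and Col1a2 encode the chains of type I, the main fiber of scar, which is built from 2 of the former and 1 of the latter. Col1a1 (chr11:94936224-94953042) had means of 4.69 in control liver, 19.6 in TAL of Scd2f/f mice and 4.51 in TAL of Scd2f/f;CC mice. Scd2f/f TAL was thus 4.18-fold above control liver, and Scd2f/f;CC TAL was at 0.230 of Scd2f/f TAL. Col1a1 is also the gene whose promoter drives the Cre. Col1a2 (chr6:4504814-4541544) had means of 6.65, 21.7 and 6.93 in the same order, which gave ratios of 3.26 for Scd2f/f TAL over control liver and 0.319 for Scd2f/f;CC TAL over Scd2f/f TAL. Col3a1 (chr1:45311538-45349706) encodes the type III homotrimer, the thin reticular fiber that mixes with type I, and had means of 19.3, 58.6 and 21.6, with ratios of 3.04 and 0.369. For these 3 genes both the control and the Scd2f/f;CC TAL means were near each other and well below the Scd2f/f TAL mean.

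Type V chains are minor partners that start type I fibrils and limit their width. Col5a1 had means of 4.52 in control liver, 9.75 in TAL of Scd2f/f mice and 5.77 in TAL of Scd2f/f;CC mice, with ratios of 2.16 and then 0.592. Col5a2, which lies tail to tail with Col3a1 on chromosome 1 across a gap of 24614 bases, had means of 2.15, 4.89 and 2.49, with ratios of 2.27 and 0.509. Both were past 2-fold in the first comparison and short of it in the second. Col5a3, the remaining type V chain, had means of 3.54, 6.32 and 6.73, so the Scd2f/f TAL mean was 1.79-fold above control liver while the TAL groups stood at a ratio of 1.06. It differed from the other chains of its type in that its mean was highest in Scd2f/f;CC TAL.

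Col27a1, a fibrillar gene best known from cartilage, ran the other way. Its means were 7.95 in control liver, 3.45 in TAL of Scd2f/f mice and 4.6 in TAL of Scd2f/f;CC mice, with ratios of 0.434 and 1.33. Of 4 cartilage marker genes 1, Hapln1, was analysed here, with means of 0.605, 0.381 and 0.348. The last fibrillar members, Col24a1 and Col11a2, did not reach the mean of 1. Col24a1 had means of 0.212, 0.209 and 0.292, and Col11a2, a chain of cartilage type XI, had means of 0.216, 0.180 and 0.156.

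Among the type IV genes of basement membranes, Col4a1 and Col4a2 encode the chains of the network found in all tissues. Col4a1 (chr8:11198423-11312826) had means of 25.1 in control liver, 39.9 in TAL of Scd2f/f mice and 24.7 in TAL of Scd2f/f;CC mice, with ratios of 1.59 and 0.619. Col4a2 (chr8:11312805-11449287) had means of 17.0, 24.5 and 17.7, with ratios of 1.44 and 0.722. Both were highest in Scd2f/f TAL, as the scar collagens were, with ratios short of 2-fold. Col4a5, on chromosome X, encodes a chain of the network of kidney and some other basement membranes, and its means of 1.05, 2.22 and 0.785 gave ratios of 2.11 and 0.354. Its partners in that network stayed below a mean of 1. Col4a3 had means of 0.760, 0.861 and 0.836, and Col4a4 had means of 0.715, 0.626 and 0.408.

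Type VI is built from 1 chain each of Col6a1, Col6a2 and a further chain, mostly Col6a3. Col6a1 had means of 3.77 in control liver, 7.58 in TAL of Scd2f/f mice and 3.95 in TAL of Scd2f/f;CC mice, with ratios of 2.01 and 0.521. Col6a2 had means of 3.06, 5.76 and 2.27, with ratios of 1.88 and 0.394. Col6a3 had means of 8.97, 20.5 and 7.58, with ratios of 2.29 and 0.370. The 3 chains were thus each near 2-fold in the first comparison and between 0.370 and 0.521 in the second. Col6a5 and Col6a6, whose products can stand in for that of Col6a3, were low. Col6a5 had means of 0.425, 0.360 and 0.211, and Col6a6 had means of 0.483, 0.446 and 0.642.

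None of the 3 FACIT genes was past 2-fold in the 3 comparisons, against 9.29%, 2.18% and 7.06% of all genes in either direction. Col14a1, which encodes a collagen that binds fibril surfaces and spaces fibrils, had means of 34.8 in control liver, 66.9 in TAL of Scd2f/f mice and 43.2 in TAL of Scd2f/f;CC mice, with ratios of 1.92 and 0.646. Col12a1, whose product bridges fibrils and other matrix, had means of 4.92, 7.06 and 4.08, with ratios of 1.44 and 0.578. Col16a1 had means of 1.37, 2.32 and 1.42, with ratios of 1.69 and 0.612. All 3 had their highest mean in Scd2f/f TAL.

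The multiplexins, basement membrane collagens with interrupted repeats, were Col15a1 and Col18a1. Col15a1 had means of 3.08 in control liver, 4.82 in TAL of Scd2f/f mice and 3.37 in TAL of Scd2f/f;CC mice, with ratios of 1.56 and 0.699. Col18a1 (chr10:77052178-77166548) had means of 323, 379 and 458, with ratios of 1.17 and 1.21, so its mean was highest in Scd2f/f;CC TAL. Of the transmembrane members, Col13a1, a collagen of cell adhesion sites, had means of 2.38, 1.94 and 2.12, with ratios of 0.815 and 1.09. Col25a1 and Col17a1 stayed below a mean of 1. Col25a1, a neuronal membrane collagen, had means of 0.821, 0.178 and 0.344, and Col17a1, a component of hemidesmosomes, had means of 0.212, 0.205 and 0.248.

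The remaining members were low. Col8a1, a short-chain collagen of vessel walls, had means of 0.606 in control liver, 0.868 in TAL of Scd2f/f mice and 0.489 in TAL of Scd2f/f;CC mice. Col10a1, the short-chain collagen of hypertrophic cartilage, had means of 0.365, 0.665 and 0.498. Col28a1, known from peripheral nerve, had the lowest mean of all at 0.0455 in Scd2f/f;CC TAL, against 0.0685 in control liver and 0.230 in Scd2f/f TAL. The group means of the 11 genes below a mean of 1 ranged from 0.0455 to 0.868, and their ratios rest on values that low. Among them were wide ratios, none of which entered the counts above. In Scd2f/f TAL over control liver these included 3.36 for Col28a1 and 0.217 for Col25a1, and in Scd2f/f;CC TAL over Scd2f/f TAL 0.198 for Col28a1.

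**Figure D4:**
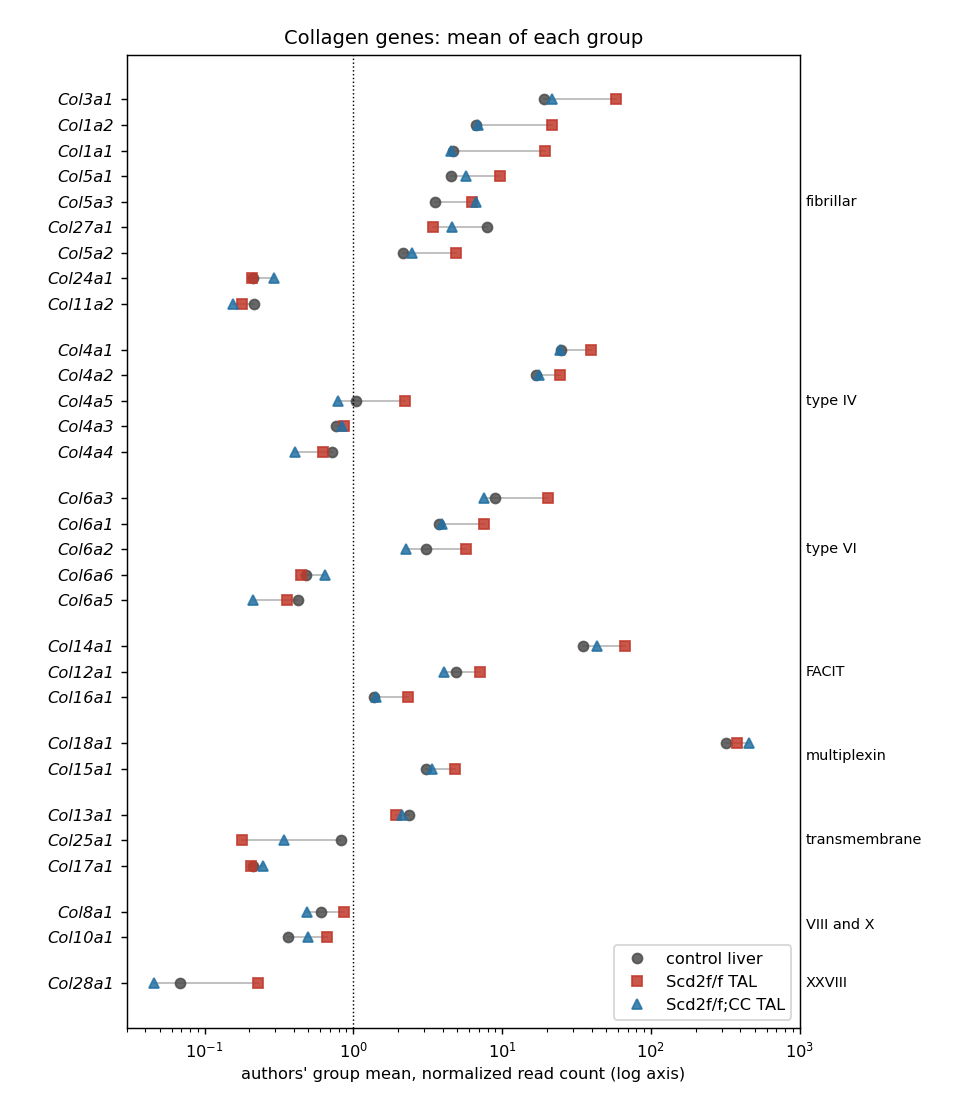
Points give the authors' group mean (normalized read count, log axis, no error bars) of all 30 collagen genes by type, with a circle for control liver, a square for Scd2f/f TAL and a triangle for Scd2f/f;CC TAL; the dotted line is at 1. For Col1a1, Col1a2 and Col3a1 the square stands at 19.6, 21.7 and 58.6, and the circle and triangle lie together to its left.

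Chains that share a molecule can be compared as quotients of their means. The same was done for Col3a1 and Col1a2, whose products form separate molecules that mix in fibers. Within 1 group such a quotient mixes level and gene length, but across groups the length cancels. The quotient of Col1a1 to Col1a2 was 0.705 in control liver, 0.903 in TAL of Scd2f/f mice and 0.651 in TAL of Scd2f/f;CC mice, so the group means of the 2 chains of type I were not in the same proportion. On the per-kb scale this quotient was above 1 by exon length (1.34, 1.71 and 1.23) and below 1 by longest transcript (0.636, 0.815 and 0.587). The quotient of Col4a1 to Col4a2 was 1.48, 1.63 and 1.40, and that of Col3a1 to Col1a2 was 2.90, 2.70 and 3.12. These stayed closer to each other across groups than type VI, where Col6a1 to Col6a2 was 1.23, 1.32 and 1.74 and Col6a3 to Col6a1 was 2.38, 2.70 and 1.92. Within type V, Col5a1 to Col5a2 was 2.10, 1.99 and 2.32. The largest shift between the TAL groups among the chain pairs computed was that of Col5a3 to Col5a1, which was 0.783 in control liver, 0.648 in TAL of Scd2f/f mice and 1.17 in TAL of Scd2f/f;CC mice.

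Several members lie beside each other in the genome. Col4a1 and Col4a2 lie head to head with their first 22 bases overlapping, Col4a4 and Col4a3 lie head to head 71 bases apart, Col6a2 and Col6a1 lie on the same strand 85161 bases apart, and Col6a6 and Col6a5 lie on the same strand 27917 bases apart. Of the 30 members, 8 share exon bases with another gene, at most 5.65% of the exons, for Col4a3. The library kit does not mark strand, so reads over such bases cannot be assigned to a strand. Among the members, only Col6a5 and Col6a6 share identical stretches of 50 bases, in 3.42% and 3.51% of their windows of that length, and their values are uncertain to that extent.

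Promoters from RefSeq (GRCm38.p6, 250 bases before to 50 after the start site) were found for 25 of the 30 members, with 27 start sites in all. None was found for Col1a1, Col4a3, Col5a2, Col12a1 or Col14a1, so these genes are not in the motif shares below. Both strands were searched for the TATA box as TATAAA, the CCAAT box as its name spells it, the TEAD site as GGAATG, the TCF/LEF site as CTTTGA and the SP1 site as GGGCGG, of which none contains another. GGGCGG occurred in 59.3% of the members' promoters and in 35.7% of all 32851 promoters, and the median GC content was 60% in the former and 52.7% in the latter. TATAAA occurred in 18.5% of members' promoters and 13.6% of all, CCAAT in 33.3% and 37.4%, GGAATG in 11.1% and 14.7%, and CTTTGA in 18.5% and 16.0%. The promoters below are shown because Col1a2 and Col3a1 had among the widest ratios, and because the window of Col4a2 also holds the start of Col4a1. Capitals mark the searched motifs on either strand. They lie at chr6:4505368-4505667 for Col1a2, chr1:45311288-45311587 for Col3a1 and chr8:11312555-11312854 for Col4a2, all on the plus strand.
Col1a2: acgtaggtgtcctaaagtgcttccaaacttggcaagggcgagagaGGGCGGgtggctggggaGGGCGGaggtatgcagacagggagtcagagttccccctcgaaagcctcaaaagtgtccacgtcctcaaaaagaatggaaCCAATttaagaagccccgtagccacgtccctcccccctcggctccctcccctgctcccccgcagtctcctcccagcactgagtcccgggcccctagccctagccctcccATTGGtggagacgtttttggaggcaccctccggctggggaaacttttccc
Col3a1: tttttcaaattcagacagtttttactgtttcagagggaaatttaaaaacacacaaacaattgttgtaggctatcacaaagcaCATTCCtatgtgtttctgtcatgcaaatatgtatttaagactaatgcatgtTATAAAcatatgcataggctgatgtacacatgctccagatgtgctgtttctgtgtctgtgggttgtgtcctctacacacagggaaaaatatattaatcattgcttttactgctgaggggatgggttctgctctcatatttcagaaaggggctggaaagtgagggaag
Col4a2: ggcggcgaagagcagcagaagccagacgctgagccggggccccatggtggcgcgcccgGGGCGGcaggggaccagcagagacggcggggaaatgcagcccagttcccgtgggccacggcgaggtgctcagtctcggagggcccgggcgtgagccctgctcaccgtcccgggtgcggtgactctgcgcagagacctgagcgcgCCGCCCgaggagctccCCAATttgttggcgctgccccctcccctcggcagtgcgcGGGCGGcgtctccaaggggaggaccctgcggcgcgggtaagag
That of Col1a2 holds GGGCGG beginning 205 and 188 bases before the start site and CCAAT 109 bases before it and, on the other strand, at the start site itself. That of Col3a1 holds TATAAA 117 bases before the start site and GGAATG, on the other strand, 168 bases before it, and no GGGCGG. That of Col4a2 holds CCAAT 32 bases before the start site and GGGCGG 192 and 48 bases before it and 7 bases past it. These are matches of letters only.

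Collagen chains need a set of enzymes and chaperones to be hydroxylated, folded, trimmed and crosslinked. Of 32 such biosynthesis genes, 29 were analysed here and 20 had a mean of at least 1. In Scd2f/f TAL over control liver 3 of the 20 were at least 2-fold higher, against 6.4% of all genes, and none was lower, against 2.89%. These were the crosslinking lysyl oxidases Loxl1 (2.23) and Loxl2 (2.22) and the procollagen N-proteinase Adamts2 (2.09), while the lowest ratios were those of the folding factors Ppib (0.760) and P3h1 (0.811) and of P4ha2 (0.830). In Scd2f/f;CC TAL over Scd2f/f TAL, 16 of the 20 ratios were below 1, as were those of 5698 of all 11784 genes. Of the 20, 1 gene, Loxl1 at 0.261, was at least 2-fold lower, against 1.54% of all genes. Serpinh1, the collagen chaperone HSP47, followed at 0.537 and Adamts2 at 0.541. The highest were Pcolce2 at 1.26, Bmp1, the procollagen C-proteinase, at 1.18 and Ppib at 1.15. The median log2 ratio of the 20 was 0.45 in the first comparison and -0.28 in the second, against 0.91 and -0.76 for the collagen genes. In Scd2f/f;CC TAL over control liver 1 of the 20, Pcolce2 at 2.28, was at least 2-fold higher, against 4.51% of all genes. None was at least 2-fold lower, against 2.55%. Plod1 at 1.73 and Pepd at 1.32 followed Pcolce2, and the lowest were Serpinh1 at 0.573, Loxl1 at 0.582 and P4ha2 at 0.630.

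All 8 genes of a list of collagen receptors were analysed, and 5 had a mean of at least 1. In Scd2f/f TAL over control liver all 5 ratios were above 1, as were those of 6216 of all 11784 genes. Only the immune receptor Lair1 was past 2-fold, at 3.36, against 6.4% of all genes that were higher. Mrc2 followed at 1.97, Ddr1 at 1.64, Itga1 at 1.41 and Ddr2 at 1.23. In Scd2f/f;CC TAL over Scd2f/f TAL all 5 were below 1, as were those of 5698 of all 11784 genes. The collagen-binding kinase Ddr1 (0.253) and the collagen uptake receptor Mrc2 (0.286) were past 2-fold, against 1.54% of all genes that were lower. Ddr2 (0.703), Lair1 (0.770) and Itga1 (0.918) followed. Against control liver, Scd2f/f;CC TAL had Lair1 at 2.59, Itga1 at 1.29, Ddr2 at 0.863, Mrc2 at 0.564 and Ddr1 at 0.415. Of 6 collagen-degrading enzymes 5 were analysed here, and 2 had a mean of at least 1. Mmp2, a gelatinase, was at a ratio of 2.57 in Scd2f/f TAL over control liver, 0.350 in Scd2f/f;CC TAL over Scd2f/f TAL and, against control liver, 0.899 in the former. Mmp14, a membrane collagenase, was at 1.29, 0.882 and 1.14. Like Col1a1, Col1a2 and Col3a1, Mmp2 had its highest mean, 3.06, in Scd2f/f TAL.

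Marker genes of the liver's cell types are given beside the collagen genes. Hepatocyte markers dominated every group, with summed means of 36690 in control liver, 34200 in TAL of Scd2f/f mice and 38760 in TAL of Scd2f/f;CC mice over all 6 of the list. None of the 6 was past 2-fold in the 3 comparisons, against 9.29%, 2.18% and 7.06% of all genes in either direction. Markers of hepatic stellate cells and portal fibroblasts, all 12 of which were analysed, summed to 188, 262 and 173. Between the TAL groups all 10 of these with a mean of at least 1 had ratios below 1, as had 5698 of 11784 genes. Of the 10, 3 were at least 2-fold lower in Scd2f/f;CC TAL, against 1.54% of all genes, namely Pdgfrb (0.479), Lum (0.452) and Tagln (0.462). The others were short of 2-fold, namely Lrat (0.842), Reln (0.803), Lhx2 (0.749), Ngfr (0.729), Des (0.602), Dcn (0.569) and Fbln2 (0.525). The median log2 ratio of the 10 was 0.50 in the first comparison and -0.77 in the second, close to the -0.76 of the collagen genes in the latter. Several of these marker genes, such as Dcn and Lum, encode matrix proteins made by the same cells as the collagens. In Scd2f/f TAL over control liver 8 of the 10 counted markers had ratios above 1, as had 6216 of 11784 genes. The other 2 were Des (0.774) and Tagln, a marker of activation with means of 7.85, 3.79 and 1.75. Acta2, also a marker of activation, was not among the 10, at a mean over the 3 groups of 0.953. Its group means were 1.27, 1.20 and 0.388.

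Markers of the other cell types were summed in the same way. Macrophage markers, 6 of 6 analysed, summed to 75.4 in control liver, 288 in TAL of Scd2f/f mice and 258 in TAL of Scd2f/f;CC mice, and endothelial markers, 7 of 7, to 110, 147 and 147. Unlike the scar collagens, both sums were nearly as high in Scd2f/f;CC TAL as in Scd2f/f TAL. Cholangiocyte markers, 5 of 6, summed to 58.7, 53.1 and 19.1, and their 3 genes with a mean of at least 1 had ratios from 0.275 to 0.700 between the TAL groups. Lymphocyte markers, 6 of 6, summed to 1.08, 3.30 and 2.29, and mesothelial markers, 3 of 4, to 1.91, 0.667 and 0.504. No marker analysed was at 0 in a group. How far the number of any of these cells entered the collagen ratios was not tested.

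**Figure D5:**
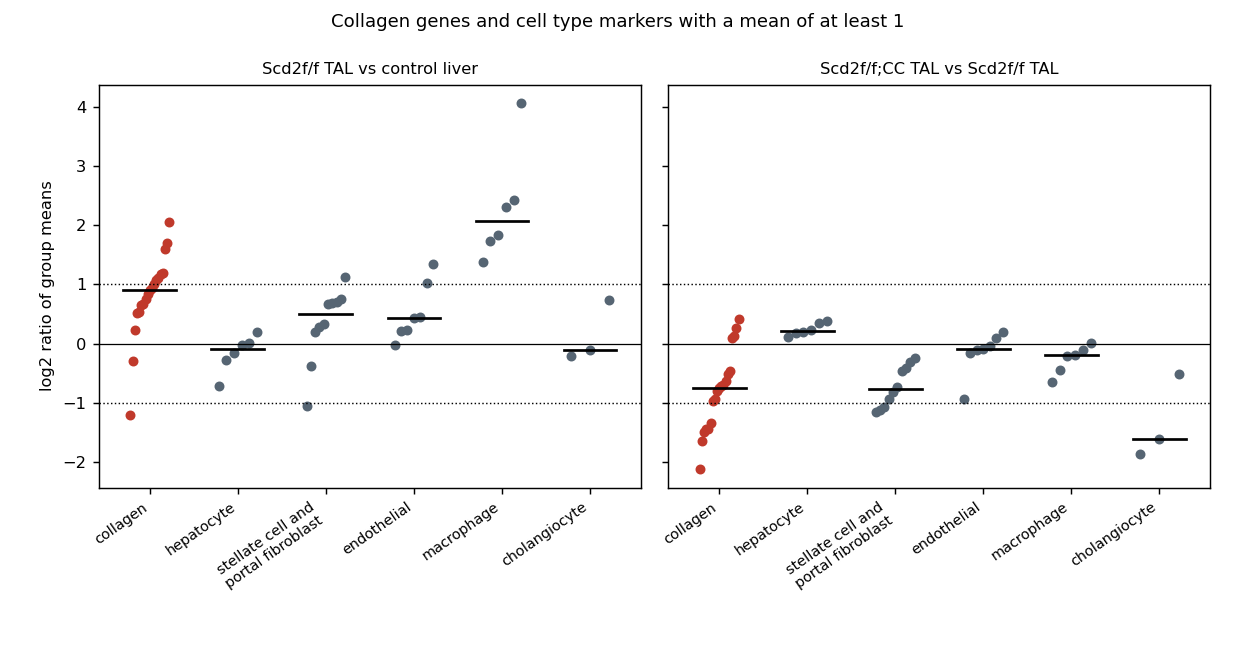
Each point is the log2 ratio of 2 group means for 1 gene with a mean of at least 1, in columns for the 19 collagen genes and for marker lists of 5 cell types, with bars at the median and dotted lines at 2-fold. In the right panel the medians of collagen genes (-0.76) and of stellate cell and portal fibroblast markers (-0.77) lie at the same height. The cholangiocyte median is lower, at -1.61 over 3 genes. The endothelial, macrophage and hepatocyte medians are at -0.087, -0.19 and 0.21.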

How the data were processed

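Per the study's methods, polyadenylated RNA was prepared with the TruSeq V2 kit and sequenced on a NextSeq. Reads were assigned to genes of Gencode M3 by Partek's E/M method, scaled by upper quartile normalization and compared by Partek Gene Specific Analysis, and the labels add STAR 2.6.1, Partek 6 and mm10. The deposited signal values analysed here are the authors' least-squares mean of normalized counts for each group, given to 3 significant digits in 1 table of 16755 genes and 18 columns. The table's other columns hold genome positions, a repeat of the Scd2f/f TAL mean and the authors' p-values, FDR, ratios and fold changes for their comparisons, and of these only the positions were read. Library depth is unknown, and no counting interval could be computed. The 75th percentile of the means was 15.5, 15.5 and 15.4 in the 3 groups.

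Ratios were computed as quotients of means with Python 3.11.15, pandas 2.3.3 and NumPy 2.4.6. The working of the call rule was checked on simulated group means. These held no spread between mice, so the check does not bear on the calls made here. Symbols were looked up in GENCODE M21 on GRCm38 (16171 matched), which gave coordinates, exon unions, transcripts and coding exons, and promoters came from RefSeq tables. The members, gene lists, thresholds and alternatives were chosen with earlier results of these data known. Every collagen gene is named, with both ratios where its mean was at least 1, and of the biosynthesis, receptor and degradation lists the 3 highest and 3 lowest ratios of each comparison are named among genes with that mean. Alternatives were pseudocounts of 0.1 and 1, filters of none, 0.5 and 5, centering on the median of all genes, thresholds of 1.5-fold and 3-fold, and other gene lengths.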

Additional observations from a re-analysis of the deposited data

How the results depend on the processing

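The counts of collagen genes called changed with the threshold and the pseudocount, and so did the share of all genes called, given after each count. Of Scd2f/f TAL over control liver, the count of higher genes was 8 at 2-fold (6.4% of all genes), 14 at 1.5-fold (12.8%), 3 at 3-fold (2.89%) and 4 with a pseudocount of 1 (3.83%), and that of lower genes was 1 at 2-fold (2.89%), 0 at 3-fold (1.06%) and 2 of 30 without a filter on the mean (4.69%). With that pseudocount Col5a1 (0.96), Col5a2 (0.90), Col6a1 (0.85) and Col4a5 (0.65) came short of a log2 ratio of 1, and Col6a1 did so also with a pseudocount of 0.1 (0.99) and after centering (0.98). Of Scd2f/f;CC TAL over Scd2f/f TAL, the count of lower genes was 6 at 2-fold (1.54%), 13 at 1.5-fold (4.9%) and 2 at 3-fold (0.382%), and Col4a5 was at -0.85 with a pseudocount of 1. Of Scd2f/f;CC TAL over control liver, 2 of 30 genes were lower without a filter (4.64%), and at 1.5-fold 1 of 19 was higher (10.9%) and 1 lower (7.71%), against 0 and 0 at 2-fold. By coding length, type I and type III made up 7.59% of the collagen sum in control liver and 6.34% in Scd2f/f;CC TAL. Their share in Scd2f/f TAL was 17.0% by coding length and 11.5% by exon length, within 1.5-fold. In all, 66 counts, medians and shares and 170 ratios of single genes kept their direction and stayed within 1.5-fold of their value. No ratio reversed. No paired analysis was possible because each group was used as 1 mean and no test was run. For the same reason leaving out single mice or the highest library, which had been planned, was not run. Only the 3 group means were used, without an error, so no value here was set against the spread between mice.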
